A study of Mus musculus with 12 samples.

Results

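The cytosolic heat shock proteins examined here were the products of 10 genes, the transcription factor gene Hsf1 and the chaperone and co-chaperone genes Hspa1a, Hspa1b, Hspa8, Hsph1, Hsp90aa1, Hspb1, Hspb8, Dnajb1 and Bag3, taken by gene symbol from the 56748 genes of the deposited count table. All 10 were found, each as 1 row of the table. RNA was sequenced from whole livers of mice fasted for 24 h, with 4 livers in each of 3 genotypes. Single KO livers (SKO) are labelled as knocked out for Cpt2, the mitochondrial enzyme that returns long-chain acylcarnitines to acyl-CoA for fatty acid oxidation, and double KO livers (DKO) for both Cpt2 and the stress-induced transcription factor gene Atf3. Both were made with floxed alleles and a Cre transgene under the albumin promoter, which is active in hepatocytes. The controls, called WT here, are labelled as floxed for Cpt1a, Cpt1b and Cpt2 rather than for Atf3 and Cpt2. The labels give no age, sex or batch for any liver, and the study's text describes the sequenced mice as male. They do not say whether the mice of a genotype shared a litter or a day, so the p-values measure the spread between these livers.

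Heat shock proteins bind unfolded or partly folded proteins. In unstressed cells the transcription factor HSF1 is held inactive by chaperones, and when unfolded proteins occupy these chaperones HSF1 forms trimers that bind heat shock elements, repeats of the letters nGAAn in alternating direction, in the promoters of its targets. HSP70 proteins fold clients in cycles of ATP hydrolysis that are started by J-domain proteins such as DNAJB1 and reset by nucleotide exchange factors such as HSPH1 and BAG3, HSP90 completes the maturation of kinases and steroid receptors, and small heat shock proteins hold unfolded clients without ATP. HSPA8 is the constitutive HSP70 of the cytosol, while HSPA1A and HSPA1B are its inducible relatives.

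Total counts ranged from 14710304 to 20030055 per liver. The level of a gene is given as CPM, counts scaled to library size after TMM normalization over the 12 livers, which may be compared between livers of 1 gene but not between genes. Cpt2 was at 199 to 252 CPM in WT, 108 to 157 CPM in SKO and 101 to 127 CPM in DKO livers. Atf3 was at 1.11 to 2.16 CPM in WT and 14.5 to 53.4 CPM in SKO livers, and at 7.92, 10.7, 13.6 and 0.270 CPM in DKO livers 1 to 4. DKO livers 1 to 3 were thus above every WT liver, and DKO replicate 4 below all of them, while every DKO liver was below every SKO liver. Counts of deleted and kept exons, and of hepatocytes and other cells, are not separated in the table, so the totals of Atf3 and Cpt2 do not by themselves check the deletions. SKO replicate 3 had 18063 counts of Xist, the RNA of the inactive X chromosome of females, and DKO replicate 4 had 20855. The 4 Y-linked genes examined had 2 and 0 counts in these livers, while the other livers had at most 19 counts of Xist. DKO replicate 4 was also the liver with the lowest Atf3 level, and its hepatocyte markers summed to 104372 CPM against 47453 to 57885 CPM in the other DKO livers and 84500 to 106039 CPM in WT livers. The calls of the 10 genes are given with and without DKO replicate 4 and SKO replicate 3.

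In SKO against WT livers, 3 of the 10 genes rose, namely Hspb1, Hspa8 and Hsp90aa1, and 0 fell. For comparison, 16.7% of the 14261 genes tested rose and 15.4% fell. In DKO against WT livers Hspb1 and Hspb8 rose, 2 of 9 genes tested, and 0 fell, against 6.06% of 14448 genes that rose and 4.39% that fell. Ribosomal RNA genes took 1.40% to 2.80% of the counts in DKO livers, above the 0.452% to 1.36% of every WT liver and against 0.713% to 1.46% in SKO livers. Mitochondrial genes took 4.18% to 4.76% in DKO, 4.73% to 5.98% in WT and 4.58% to 6.01% in SKO livers. The part of these shares in the changes was not tested. Between DKO and SKO livers 0 of 10 genes were called, against 0.0209% of 14363 genes. The test throughout was edgeR's quasi-likelihood test, two-sided, with Benjamini-Hochberg adjustment over all genes tested and a threshold of 0.05. The same 4 WT livers served as controls for both KOs, so these comparisons are not independent of each other. In whole liver, fewer cells of a type and less RNA per cell cannot be told apart.

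**Figure D1:**
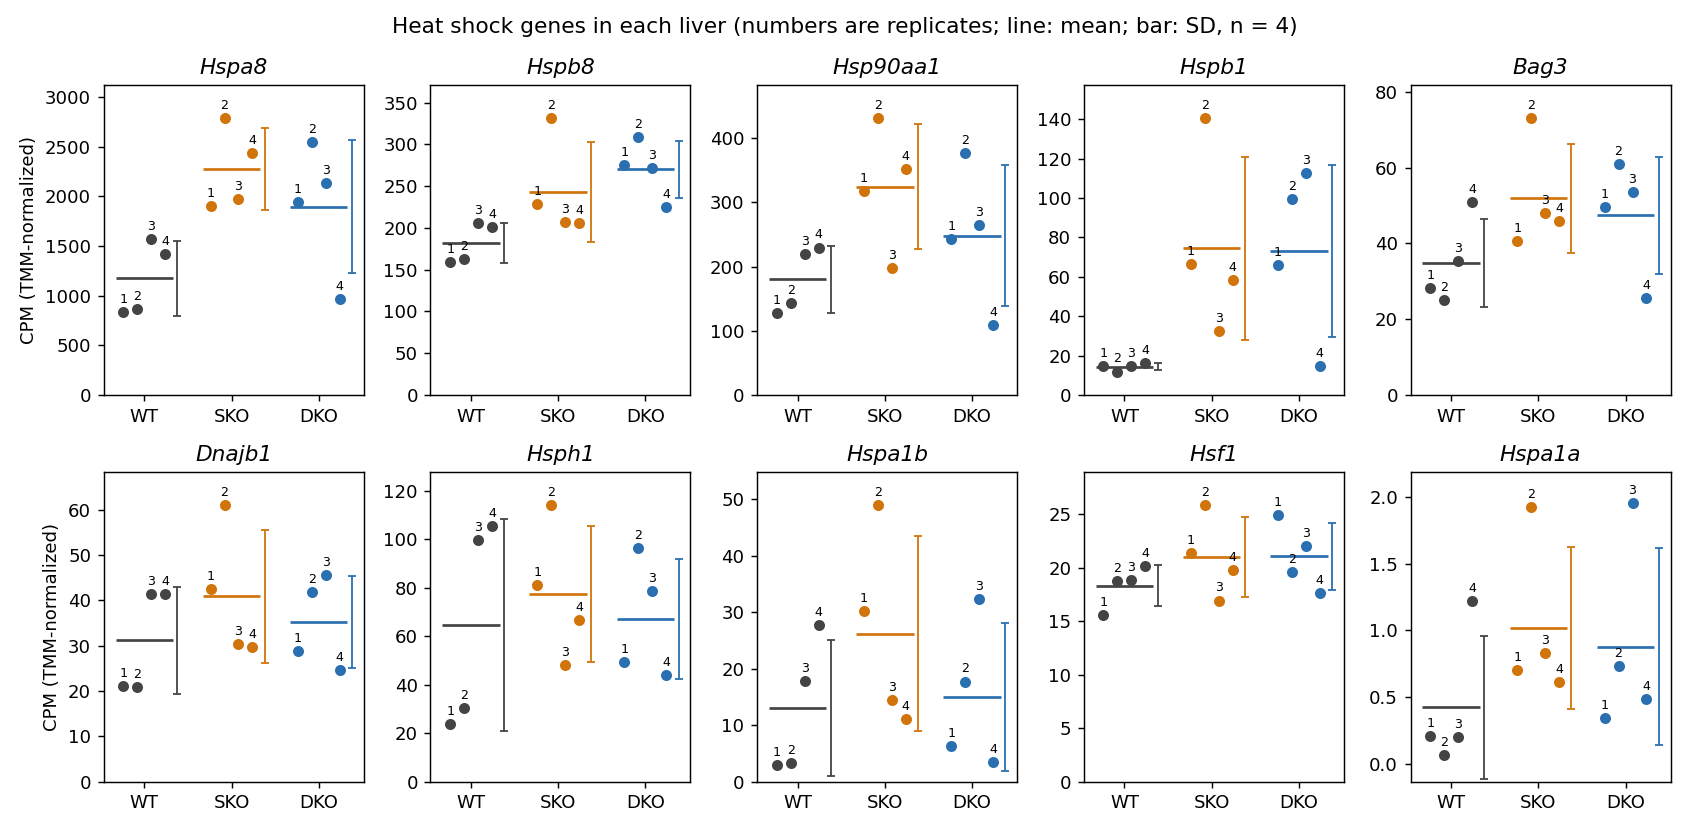
Level of each of the 10 heat shock genes in every liver, as TMM-normalized CPM on a linear axis for each gene (y) by genotype (x). Points are livers with their replicate number, horizontal lines are means of 4 livers and vertical bars are 1 SD on each side. Hspb1 sat between 11.9 and 16.4 CPM in all WT livers and in DKO replicate 4, and at 32.3 CPM or more in the other 7 livers.

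Hsf1, the factor itself, was at 15.6, 18.8, 18.9 and 20.1 CPM in WT livers 1 to 4, at 21.4, 25.9, 16.9 and 19.8 CPM in SKO livers and at 24.9, 19.6, 22.0 and 17.7 CPM in DKO livers. The 3 ranges overlapped. The log2 fold change was 0.21 ± 0.15 (SE, n = 4 per group) in SKO against WT livers (edgeR, adjusted p = 0.331) and 0.21 ± 0.14 in DKO against WT livers (edgeR, adjusted p = 0.334). The mRNA level of Hsf1 does not report the activity of the protein, which is set largely after translation.

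Hspb1, which encodes the small heat shock protein HSP25 of mice, had the largest fitted change of the 10 genes in SKO against WT livers. It also had the largest of the 9 genes tested in DKO against WT livers. Without WT replicate 4 the SKO value of Hspa1a was larger, at 2.64 on the log2 scale against 2.43 for Hspb1. Hspb1 was at 14.7, 11.9, 14.7 and 16.4 CPM in WT livers, at 66.6, 141, 32.3 and 58.3 CPM in SKO livers and at 65.9, 99.4, 113 and 14.6 CPM in DKO livers. All SKO livers were above all WT livers, whereas in DKO livers 3 were above and replicate 4 lay within the WT range. Hspb1 rose 5.22-fold in SKO against WT livers (log2 fold change 2.38 ± 0.36, edgeR, adjusted p = 0.000460), and its adjusted p was at most 0.00620 in every alternative tried. It rose 5.10-fold in DKO against WT livers (log2 fold change 2.35 ± 0.50, edgeR, adjusted p = 0.0227). With DKO replicate 4 left out, the fitted value was 2.69 ± 0.18 (edgeR, adjusted p = 1.78e-06). The call was lost when any liver other than DKO replicate 4 was left out, with adjusted p between 0.0550 and 0.0761 in edgeR for log2 fold changes between 2.07 and 2.41, and with the replicate number as a block (edgeR, adjusted p = 0.0741). Between DKO and SKO livers the log2 fold change was -0.03, with a 95% interval from -1.28 to 1.21 that allows differences of more than 2-fold in either direction. Of all 100-base windows of the annotated Hspb1 transcript, 42.7% also occur in the pseudogene Hsp25-ps1, which had 0 to 24 counts per liver.

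The promoter of Hspb1 is shown because it was the only 1 of the 9 promoters found for the 10 genes with a pair of heat shock element cores before the start. The 150 bases before the start are from RefSeq (GRCm38.p6, chr5:135887769-135887918, plus strand), with the letters of the cores in capitals.
Hspb1: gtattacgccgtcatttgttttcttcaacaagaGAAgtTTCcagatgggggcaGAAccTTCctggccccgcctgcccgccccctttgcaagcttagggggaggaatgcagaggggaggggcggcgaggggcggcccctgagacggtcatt
A core was searched as GAANNTTC or TTCNNGAA, each of which reads the same on both strands. In Hspb1 the cores GAAGTTTC and GAACCTTC begin 117 and 97 bases before the start. Of 32851 mouse promoters in the same table, 12.8% held either core in the 250 bases before the start. A core was there in 4 of the 7 genes with a promoter, among them the near-identical Hspa1a and Hspa1b. The share of all promoters with a pair of cores was not counted. The match is a description of letters, and binding of HSF1 was not measured.

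Hspb8, the small heat shock protein that works with BAG3, was at 160, 163, 206 and 201 CPM in WT livers, at 229, 332, 207 and 206 CPM in SKO livers and at 276, 308, 272 and 225 CPM in DKO livers. In CPM every SKO and DKO liver was above every WT liver, DKO replicate 4 included, although SKO replicates 3 and 4 lay only just above WT replicate 3, the highest WT liver. By the length-scaled FPKM that the authors deposited, SKO replicates 3 and 4, at 110.0 and 108.7, were below WT replicate 3 at 110.3. It rose 1.49-fold in DKO against WT livers (log2 fold change 0.58 ± 0.15, edgeR, adjusted p = 0.0373), and the fold in SKO against WT livers was 1.35 (log2 fold change 0.43 ± 0.17, edgeR, adjusted p = 0.0810), which did not pass the threshold. The difference between DKO and SKO livers was 0.15 on the log2 scale, with a 95% interval from -0.28 to 0.58, so the passing of the threshold in only 1 of the comparisons does not show that the genotypes differ. The DKO call was lost without any single liver other than DKO replicate 4, with log2 fold changes of 0.50 to 0.64. It was also lost with no filter on low counts (edgeR, adjusted p = 0.0549), with all 12 livers in 1 fit (edgeR, adjusted p = 0.0531) and with the replicate number as a block (edgeR, adjusted p = 0.0919). With DKO replicate 4 left out the value was 0.65 ± 0.12 (edgeR, adjusted p = 0.00181). Among the 3 genes with CPM ranges apart in SKO against WT livers (Hspa8, Hspb1 and Hspb8) and the 1 in DKO against WT livers (Hspb8), the direction was upward, against 16.4% and 8.01% of all genes tested with ranges apart in that direction. For Hspb8 in SKO livers this depends on the normalization.

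Hspa8 was at 835, 870, 1574 and 1423 CPM in WT livers, at 1905, 2789, 1970 and 2442 CPM in SKO livers and at 1942, 2546, 2137 and 966 CPM in DKO livers. All SKO livers and DKO livers 1 to 3 were above all WT livers, and DKO replicate 4 was below 2 of them. Hspa8 rose 1.96-fold in SKO against WT livers (log2 fold change 0.97 ± 0.23, edgeR, adjusted p = 0.00711), with an adjusted p of at most 0.0301 in every alternative. In DKO against WT livers its log2 fold change was 0.70 ± 0.32 (edgeR, adjusted p = 0.176), and without DKO replicate 4 it was 0.92 ± 0.22 (edgeR, adjusted p = 0.00770). Against SKO livers the DKO value was -0.27, with a 95% interval from -0.90 to 0.37. The pseudogene Gm15459 on chromosome 5, which contains 28.9% of the 100-base windows of the Hspa8 transcript, had 17.6 to 34.0 CPM in WT, 43.3 to 59.2 CPM in SKO and 22.0 to 64.0 CPM in DKO livers. Reads of the pair may have been assigned to either gene by the counting.

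Hsp90aa1, the stress-inducible HSP90 of the cytosol, was at 128, 142, 220 and 230 CPM in WT livers, at 318, 431, 197 and 352 CPM in SKO livers and at 242, 377, 265 and 108 CPM in DKO livers. SKO replicate 3 lay within the WT range and DKO replicate 4 below it, and the other 6 KO livers were above all WT livers. Hsp90aa1 rose 1.82-fold in SKO against WT livers (log2 fold change 0.87 ± 0.25, edgeR, adjusted p = 0.0207). The call was lost without SKO replicate 2 (edgeR, adjusted p = 0.0634), without WT replicate 1 (edgeR, adjusted p = 0.0663) or without WT replicate 2 (edgeR, adjusted p = 0.0717), and with all 12 livers in 1 fit (edgeR, adjusted p = 0.0774). Without SKO replicate 3 the log2 fold change was 1.05 ± 0.22 (edgeR, adjusted p = 0.00337). In DKO against WT livers the log2 fold change was 0.47 ± 0.34 (edgeR, adjusted p = 0.386), or 0.72 ± 0.22 without DKO replicate 4 (edgeR, adjusted p = 0.0261). Between DKO and SKO livers it was -0.39, with a 95% interval from -1.15 to 0.37. Its constitutive paralog Hsp90ab1 was at 1010 CPM on average in WT, 1357 CPM in SKO and 1021 CPM in DKO livers, with a log2 fold change of 0.44 in SKO against WT livers (edgeR, adjusted p = 0.0774). Of the 100-base windows of the Hsp90aa1 transcript, 47.5% also occur in other genes, 39.6% in the pseudogene Gm12346, which was at 1.19 to 4.61 CPM across the livers.

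**Figure D2:**
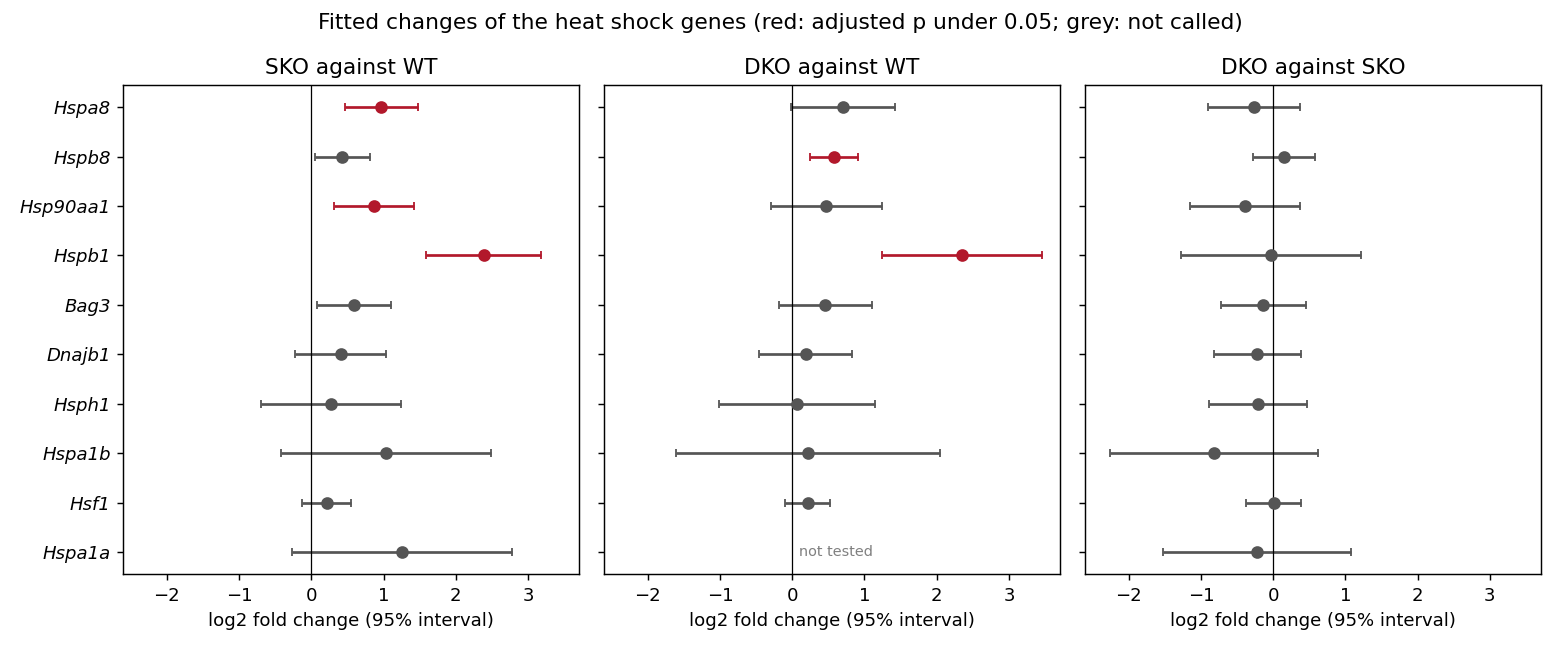
Fitted log2 fold change of each heat shock gene (x) with its 95% interval in SKO against WT, DKO against WT and DKO against SKO livers, 4 livers per group. Red marks an adjusted p under 0.05, which held for Hspa8, Hsp90aa1 and Hspb1 in the first comparison, for Hspb8 and Hspb1 in the second and for no gene in the third, and Hspa1a was not tested in the second.

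The inducible HSP70 genes Hspa1a and Hspa1b varied most among the WT livers. Hspa1b was at 2.97, 3.31, 17.9 and 27.8 CPM in WT livers, at 30.2, 49.0, 14.5 and 11.2 CPM in SKO livers and at 6.38, 17.7, 32.3 and 3.46 CPM in DKO livers. The highest WT liver was 9.36-fold above the lowest for this gene, a range that 0.235% of the 9791 genes of mean CPM at least 5 reached, where the median gene varied 1.27-fold. The fitted log2 fold changes were 1.04 ± 0.66 in SKO against WT livers (edgeR, adjusted p = 0.265) and 0.22 ± 0.81 in DKO against WT livers (edgeR, adjusted p = 0.886). The 95% intervals reached from -0.41 to 2.49 and from -1.61 to 2.04, so no difference was shown, and sizeable changes remain compatible with these values.

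Hspa1a, the neighbouring copy of Hspa1b on chromosome 17, was counted far less, with 1 to 22 counts per WT liver, 11 to 38 per SKO liver and 7 to 38 per DKO liver, or at most 1.96 CPM. It was tested in SKO against WT livers, with a log2 fold change of 1.26 ± 0.69 (edgeR, adjusted p = 0.194), and it did not pass the filter on low counts in DKO against WT livers. It was called only without WT replicate 4, the WT liver with 22 counts (log2 fold change 2.64, edgeR, adjusted p = 0.0113). Of the 100-base windows of its transcript, 47.1% also occur in Hspa1b, and 49.9% of those of Hspa1b occur in Hspa1a. The values of each copy are therefore uncertain, and with their counts summed the log2 fold change was 1.04 ± 0.66 in SKO against WT livers (edgeR, adjusted p = 0.258) and 0.25 ± 0.81 in DKO against WT livers (edgeR, adjusted p = 0.864).

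The 2 copies also share their promoters, with 98.8% of the 250 bases before the start the same and 3 bases differing. The last 150 of these bases are printed for both (RefSeq, GRCm38.p6, minus strand), as chr17:34959239-34959388 for Hspa1b and chr17:34972157-34972306 for Hspa1a, with the core letters in capitals.
Hspa1b: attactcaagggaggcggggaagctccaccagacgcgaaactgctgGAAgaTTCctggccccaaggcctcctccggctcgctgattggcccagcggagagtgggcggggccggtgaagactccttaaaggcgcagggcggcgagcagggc
Hspa1a: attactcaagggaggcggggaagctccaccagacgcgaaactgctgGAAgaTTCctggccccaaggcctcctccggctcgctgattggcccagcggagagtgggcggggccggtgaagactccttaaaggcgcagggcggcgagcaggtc
Each held 1 core, GAAGATTC, which begins 104 bases before the start in both.

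Hsph1, an HSP110 that exchanges nucleotide on HSP70, was at 23.8, 30.3, 99.7 and 105 CPM in WT livers, at 81.1, 114, 48.0 and 66.6 CPM in SKO livers and at 49.3, 96.6, 78.7 and 44.2 CPM in DKO livers. WT livers 3 and 4 were higher than 7 of the 8 KO livers, and WT livers 1 and 2 were lower than all of them. The largest WT level was 4.43-fold above the smallest, a range reached by 0.613% of genes. The log2 fold change was 0.28 ± 0.44 in SKO against WT livers (edgeR, adjusted p = 0.680) and 0.06 ± 0.48 in DKO against WT livers (edgeR, adjusted p = 0.944), and its direction depended on the livers included. RefSeq gives 2 starts for Hsph1, and a single core, TTCTCGAA, lies 33 or 54 bases before them. The 250 bases before the starts of Hspb8, Bag3 and Dnajb1 held no core, while cores begin 3 bases after the start of Hspb8, 43 after that of Bag3, and 37 and 42 after the first or 16 and 21 after the other start of Hsph1. The promoter of the start with the core at 33 bases is printed (GRCm38.p6, chr5:149636337-149636486, minus strand), since it is the core nearest to a start on the upstream side among these genes.
Hsph1: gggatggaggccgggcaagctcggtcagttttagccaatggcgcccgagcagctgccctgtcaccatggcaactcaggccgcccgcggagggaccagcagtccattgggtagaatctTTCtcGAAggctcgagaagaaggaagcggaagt

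Dnajb1, which starts the ATPase cycle of HSP70, was at 21.2, 20.9, 41.4 and 41.5 CPM in WT livers, at 42.6, 61.1, 30.3 and 29.7 CPM in SKO livers and at 28.8, 41.9, 45.5 and 24.6 CPM in DKO livers. WT livers 1 and 2 were below every KO liver, while WT livers 3 and 4 lay among them. Its log2 fold change was 0.41 ± 0.29 in SKO against WT livers (edgeR, adjusted p = 0.316) and 0.18 ± 0.29 in DKO against WT livers (edgeR, adjusted p = 0.711).

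Bag3, the partner of HSPB8 that links HSP70 clients to autophagy, was at 28.1, 25.0, 35.3 and 50.8 CPM in WT livers, at 40.7, 73.0, 47.9 and 45.8 CPM in SKO livers and at 49.5, 60.8, 53.7 and 25.4 CPM in DKO livers. WT replicate 4 lay within the SKO range and DKO replicate 4 within the WT range. The log2 fold change was 0.59 ± 0.24 in SKO against WT livers (edgeR, adjusted p = 0.0779), and without WT replicate 4 it was 0.81 ± 0.21 (edgeR, adjusted p = 0.0176). The gene also passed with no filter on low counts (edgeR, adjusted p = 0.0154). For DKO against WT livers it was 0.45 ± 0.29 (edgeR, adjusted p = 0.325), and without DKO replicate 4 it was 0.66 ± 0.21 (edgeR, adjusted p = 0.0282).

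For the 10 genes together, the median log2 fold change was 0.73 in SKO against WT livers, 0.45 over the 9 tested in DKO against WT livers and -0.22 in DKO against SKO livers, beside medians of 0.031, 0.030 and 0.0086 over all genes tested. All 10 fitted values were above 0 in SKO against WT livers and all 9 in DKO against WT livers. In DKO against SKO livers 8 of 10 were below 0, and 0 had an unadjusted p under 0.05 by edgeR, where 6.49% of all genes had. DESeq2 also called 0 of the 10 in that comparison and had 0 at an unadjusted p under 0.05. Without WT replicate 4, 5 of the 10 genes rose in SKO against WT livers (Hspb1, Hspa8, Hsp90aa1, Bag3 and Hspa1a), against 12.4% of all genes tested without that liver. WT replicate 4 had the highest mean over the 10 genes among WT livers. The count was 2 without SKO replicate 2, WT replicate 1 or WT replicate 2, where 12.4% to 14.4% of all genes rose. Leaving out SKO replicate 3 kept the same 3 genes as the whole set of livers. Without DKO replicate 4, 5 of the 10 genes rose in DKO against WT livers (Hspb1, Hspb8, Hspa8, Hsp90aa1 and Bag3), against 18.4% of all genes tested without that liver. With any other single liver left out of that comparison the count was 0, where 0.828% to 2.43% of all genes rose.

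The levels of the 10 genes also differed between livers of 1 genotype, often in the same livers. SKO replicate 2 had the highest SKO level of 10 of 10 genes and the highest level of all 12 livers for 9 of 10. DKO replicate 4 had the lowest DKO level of 9 of 10, the exception being Hspa1a. WT livers 1 and 2 were both below WT livers 3 and 4 for 8 of 10, all but Hspb1 and Hspa1a. Of the 9791 genes of mean CPM at least 5, these patterns held for 31.1%, 19.1%, 41.6% and 25.1% respectively. DKO replicate 4 was within or below the WT range for 9 of 10, as it was for 74.4% of these genes, and DKO livers 1 to 3 were above every WT liver for 4 of 10 (Hspb1, Hspb8, Hspa8 and Hsp90aa1), against 25.7%. The patterns were picked out after the values were seen, and the genes of a liver are not independent of each other. Averaged over the 10 genes, log2 CPM relative to the mean of the 12 livers was -0.99 and -1.02 in WT livers 1 and 2, -0.17 and 0.18 in WT livers 3 and 4, 1.05 in SKO replicate 2 and -0.72 in DKO replicate 4. SKO replicate 3, the other liver with Xist counts, stood at -0.03 and was the lowest SKO liver for 4 of 10 genes, a pattern of 26.9% of those 9791 genes. The labels give nothing else that separates WT livers 1 and 2 from WT livers 3 and 4, whose shares of counts from mitochondrial genes were 5.98% and 4.73% against 4.92% and 5.30%, and whose shares from ribosomal RNA genes were 0.452% and 1.16% against 1.36% and 1.15%.

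**Figure D3:**
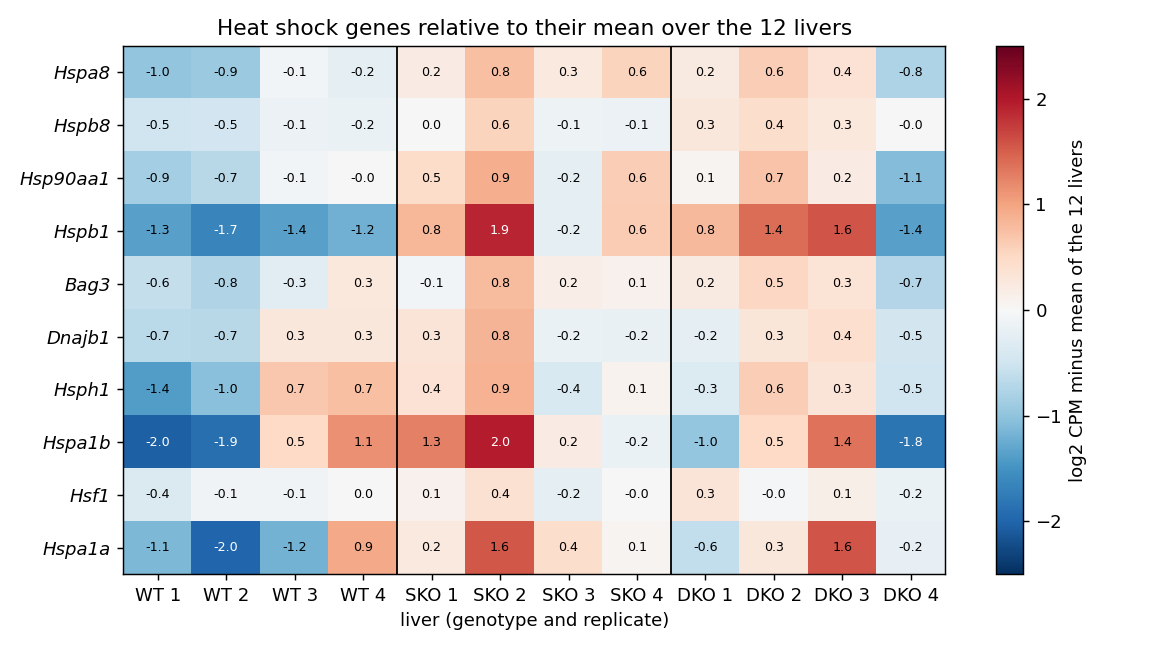
Log2 CPM of the 10 heat shock genes (rows) in each of the 12 livers (columns), relative to the mean of the gene over the 12 livers, with red above and blue below that mean and black lines between genotypes. WT replicates 1 and 2 and DKO replicate 4 are blue for nearly every gene and SKO replicate 2 is red for every gene, with means over the 10 genes of -0.99, -1.02, -0.72 and 1.05.

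Likeness of profile was measured as the root-mean-square distance between mean-centred log2 CPM profiles over the 12 livers, among the 9791 genes of mean CPM at least 5. It is a description, since the livers share genotype and depth. The genes nearest to Hspa1b were Hsph1, at a distance of 0.76, Dnajb1 and P4ha2, and those nearest to Hsph1 were Dnajb1, at 0.32, P4ha1 and Hsp90aa1. Hsp90aa1 was nearest to Hspa8, at 0.22, then to Eef1akmt4 and Zfand2a. Hspa8 had Gm15459, with which it shares sequence, at 0.15 and then Paip1 and Utp18. Dnajb1 was nearest to P4ha1, at 0.22, then to Ahsa1, which encodes an activator of HSP90, and Plod3. Hspb8 was nearest to Dnajb2, a J-domain gene, at 0.075, then to Tut1 and Ruvbl1. Hspb1 was nearest to Trmt61a, at 0.33, then to Arid5a and 1110038B12Rik, with Hspa8 the nearest of the other 9 genes at 0.81. Bag3 was nearest to Nolc1, at 0.20, then to Riox1 and Gm12989, and Hsf1 to Zscan21, at 0.10, then to Cdk9 and Rps19bp1. Hspa1a, with its few counts, was nearest to Gas6, at 0.63, then to Rpl30 and Lgals4. In WT livers the highest Hspb1 level was 1.38-fold above the lowest, a range reached by 32.9% of genes.

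Levels of different genes were compared per length, with the FPKM that the authors deposited. In WT livers the mean was 285 FPKM for Hspa8, 97.5 FPKM for Hspb8, 47.7 FPKM for Hsp90aa1, 14.6 FPKM for Hspb1, 14.2 FPKM for Bag3, 10.2 FPKM for Dnajb1, 9.30 FPKM for Hsph1, 4.83 FPKM for Hspa1b, 2.69 FPKM for Hsf1 and 0.148 FPKM for Hspa1a. The WT ranges of neighbours in this order did not overlap among the first 4 genes or between Hsf1 and Hspa1a, and they overlapped for each pair of neighbours from Hspb1 to Hsf1. In SKO livers Hspb1 was at 75.4 ± 47.7 FPKM (SD, n = 4), within the range of Hsp90aa1 at 86.0 ± 26.1 FPKM and apart from Bag3 at 21.1 ± 6.04 FPKM. In DKO livers it was at 72.7 ± 43.0 FPKM, above the mean of Hsp90aa1 at 64.8 ± 28.5 FPKM, with ranges that overlapped.

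Other chaperone genes were examined as 8 lists with 74 distinct genes. In SKO against WT livers 16 of 67 genes tested rose and 1 fell, with a median log2 fold change of 0.20, where 16.7% of all genes rose and 15.4% fell with a median of 0.031. Against WT, 3 of 68 rose and 2 fell in DKO livers, with a median of 0.07, where 6.06% of all genes rose and 4.39% fell with a median of 0.030. Without DKO replicate 4, 18 of 68 rose and 3 fell, where 18.4% of all genes rose and 2555 of 14634 fell. Without SKO replicate 3, 20 of 67 rose and 2 fell in SKO livers, where 17.3% of all genes rose and 2203 of 14475 fell. In DKO against SKO livers edgeR called 0 of 68, against 0.0209% of all genes. Of the 14 genes of TRiC, the ring-shaped chaperonin that folds actin and tubulin, and of prefoldin, which hands clients to it, 6 rose in SKO against WT livers (Cct2, Cct3, Cct4, Cct5, Cct6a and Cct7), and edgeR called 0 in DKO against WT livers. In that comparison 4 of 14 had an unadjusted p under 0.05, near the 29.4% of all genes, and 5 of 14 rose without DKO replicate 4 (Cct2, Cct3, Cct4, Cct5 and Cct7). Cct3 was at 86.4, 96.0, 100 and 92.9 CPM in WT livers, at 141, 200, 153 and 169 CPM in SKO livers and at 137, 174, 145 and 88.5 CPM in DKO livers. Its SKO livers did not overlap WT livers, and DKO replicate 4 was within the WT range. Its log2 fold change in SKO against WT livers was 0.84 ± 0.13 (edgeR, adjusted p = 0.000581).

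For the lists that follow, the shares of all genes that rose and fell were 16.7% and 15.4% in SKO against WT livers. In DKO against WT livers they were 6.06% and 4.39%. Of the 6 other HSP70 and HSP110 genes tested, Hspa4, a further exchange factor, rose in SKO against WT livers (log2 fold change 0.62 ± 0.15, edgeR, adjusted p = 0.00819), and 0 of 7 were called in DKO against WT livers. Of 17 genes of HSP90 and its co-chaperones, Unc45a and Ptges3 rose in SKO against WT livers, and Ptges3 and Ttc4 rose in DKO against WT livers. Ptges3, which encodes p23, had log2 fold changes of 0.61 ± 0.22 (edgeR, adjusted p = 0.0496) and 0.59 ± 0.16 (edgeR, adjusted p = 0.0456). Of 12 J-domain genes, Dnajc2, Dnajc21 and Dnaja2 rose in SKO against WT livers and Dnajb5 fell. Dnajb5 was at 8.17, 8.78, 5.28 and 6.03 CPM in WT livers, at 3.46 to 4.71 CPM in SKO livers and at 2.73 to 3.89 CPM in DKO livers. It fell by 0.74 on the log2 scale in SKO (edgeR, adjusted p = 0.0222) and by 1.13 in DKO livers (edgeR, adjusted p = 0.0198) against WT livers, and its WT livers 1 and 2 were higher than WT livers 3 and 4.

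Of 8 BAG proteins and HSP70 regulators, Stub1, the ubiquitin ligase CHIP, rose in SKO against WT livers (log2 fold change 0.63 ± 0.13, edgeR, adjusted p = 0.00344). Only 2 of 6 other small heat shock protein genes had enough counts for a test, and of these Hspb6 fell by 0.54 on the log2 scale in DKO against WT livers (edgeR, adjusted p = 0.0391). Of the other heat shock factors and their binding protein, 3 of 5 were tested, and edgeR called 0 in each comparison, with 0 at an unadjusted p under 0.05. A list of 15 further genes known as HSF1 targets includes several of the co-chaperones above. Of these 15, 3 rose in SKO against WT livers, where 16.7% of all genes rose. They were Hspd1 and Hspe1, the chaperonin of mitochondria, and the ubiquitin gene Ubb. Ubb also rose in DKO against WT livers (log2 fold change 0.72 ± 0.17, edgeR, adjusted p = 0.0317), as the only 1 of the 15, where 6.06% of all genes rose. Stip1 and Chordc1, which belong to the same list, had log2 fold changes of 0.13 and 0.15 in SKO against WT livers and did not pass. Values in this list ranged from -0.60 to 0.70, with a median of 0.23. Of the 15, 7 had an unadjusted p under 0.05 by edgeR, where 42% of all genes had.

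**Figure D4:**
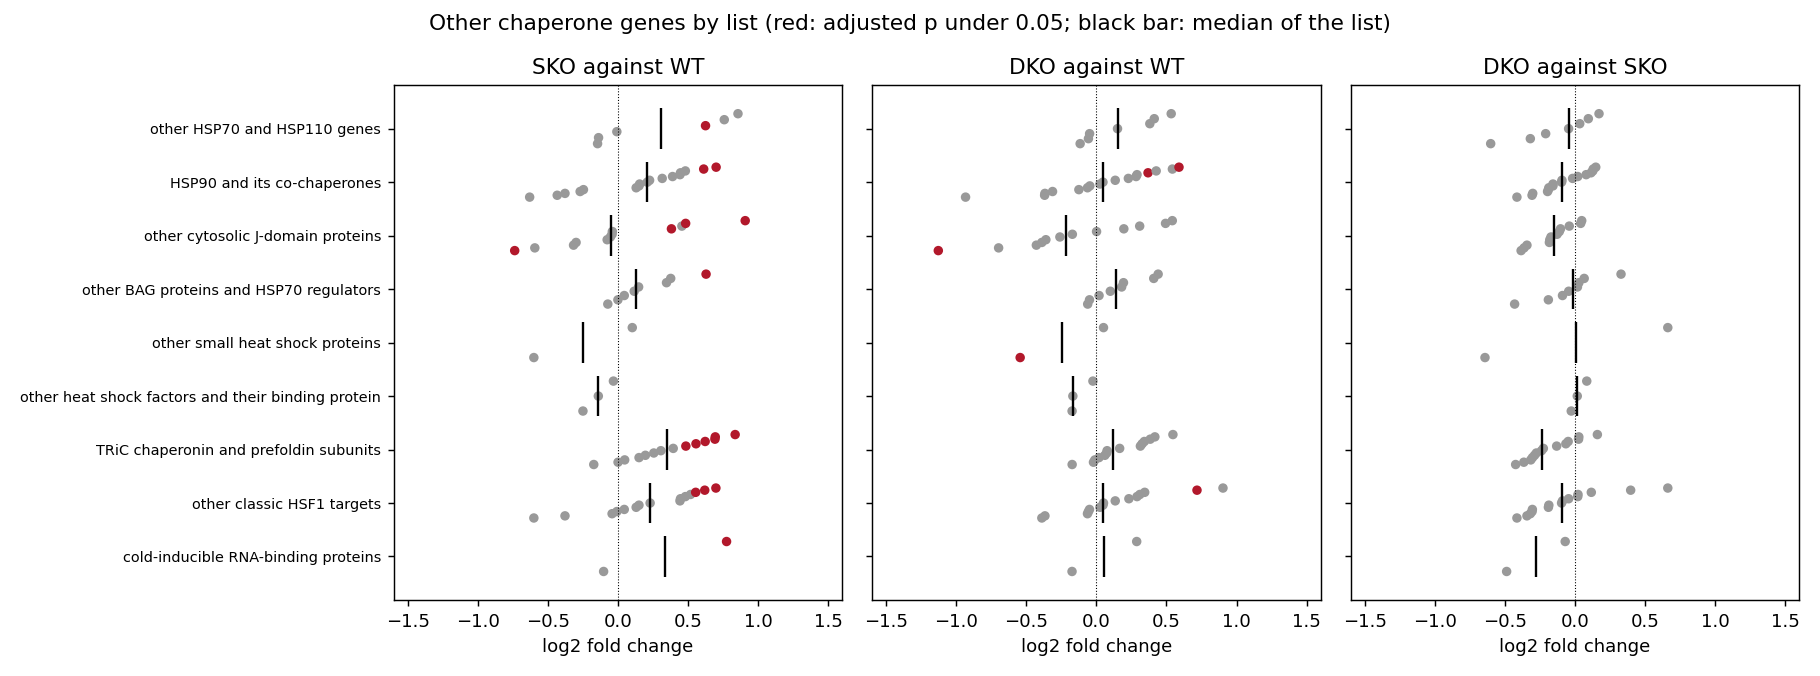
Fitted log2 fold change (x) of each tested gene of 9 lists of related genes (rows) in SKO against WT, DKO against WT and DKO against SKO livers, 4 livers per group, with genes of adjusted p under 0.05 in red and the median of each list as a black bar. In SKO against WT livers the TRiC and prefoldin genes had a median of 0.35 and 6 red points, and no gene is red in DKO against SKO livers.

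The cold-inducible RNA-binding protein genes Cirbp and Rbm3, which respond to temperature in the direction opposite to the heat shock genes, were also examined. Cirbp was at 50.3, 52.4, 28.6 and 32.4 CPM in WT livers, at 35.5, 26.9, 41.1 and 47.5 CPM in SKO livers and at 49.2, 33.5, 35.8 and 25.3 CPM in DKO livers. It was higher in WT livers 1 and 2, where most of the heat shock genes were low, and low in SKO replicate 2, although DKO replicate 4 was low for both. Rbm3 was at 60.4, 61.8, 77.6 and 87.3 CPM in WT livers, at 87.0, 130, 142 and 127 CPM in SKO livers and at 110, 92.9, 98.3 and 46.4 CPM in DKO livers. Unlike Cirbp, it was lowest in WT livers 1 and 2 among WT livers, as most of the heat shock genes were, and lowest of all in DKO replicate 4. Rbm3 rose in SKO against WT livers (log2 fold change 0.77 ± 0.17, edgeR, adjusted p = 0.00514).

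Markers of liver cell types were also examined. Hepatocyte markers summed to 84500 to 106039 CPM in WT, 49538 to 78433 CPM in SKO and 47453 to 104372 CPM in DKO livers, and 4 of the 8 were lower in SKO against WT livers while edgeR called 0 of 8 in DKO against WT livers. Markers of stellate cells and fibroblasts summed to 172 to 201 CPM in WT, 230 to 322 CPM in SKO and 212 to 279 CPM in DKO livers, with 1 of 7 higher in SKO. Cholangiocyte markers summed to 7.11 to 13.9 CPM in WT, 3.12 to 4.35 CPM in SKO and 3.22 to 5.04 CPM in DKO livers, with 1 of 4 tested lower in each KO. Erythroid markers summed to 113 to 251 CPM in WT, 155 to 530 CPM in SKO and 126 to 722 CPM in DKO livers, with 2 of 5 higher and 1 lower in SKO and 1 lower in DKO livers. Macrophage markers summed to 192 to 382 CPM in WT and 191 to 415 CPM in SKO livers, and to 115, 179, 167 and 390 CPM in DKO livers 1 to 4, so that DKO livers 1 to 3 were below every WT liver and DKO replicate 4 above all of them. Of these 7 markers 1 was higher in SKO against WT livers and edgeR called 0 in DKO against WT livers, and of the endothelial, smooth muscle and lymphocyte markers tested 0 were called by edgeR in any comparison. Ly6g, Mpo and Retnlg, defining markers of neutrophils, were at 0 in some livers, and 0 of 5 neutrophil markers could be tested. The part of these cells in the levels of the heat shock genes was not tested.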

How the data were processed

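RNA-seq was done on whole livers of 24 h-fasted mice, 4 per genotype, grouped by the genotype in the deposited labels. The authors deposited raw counts per Ensembl gene and FPKM values for 56748 genes, in separate tables. The submitters' processing notes name HISAT2 and the builds GRCm38 and mm10, although only 1485 of 52073 genes shared with a GRCm38 annotation (GENCODE M21) had the same start in the table, so coordinates of the table are not printed. The counting program and its strand setting are not given in the sources used here. The authors' tables of log2 fold changes and p-values for each pair of genotypes hold their own comparisons and were not used.

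Counts were tested with edgeR 4.0.16 in R 4.3.3 (TMM, filterByExpr, quasi-likelihood test) within the 8 livers of each comparison, with Benjamini-Hochberg adjustment over all genes tested and a threshold of 0.05. The SE of a log2 fold change was derived as its size over the square root of the F statistic of this test. The 95% intervals were built from that SE with a t quantile. CPM used TMM factors of the 12 livers, and log2 CPM a prior count of 2. A gene at 0 may have up to 3 counts, and this limit covers counting error only. It is 0.150 to 0.204 CPM when scaled by total counts without the TMM factors, unlike the CPM levels given above. Tested on simulated counts of each comparison, with 14060 to 14203 genes, the fit found 189 of 200 genes changed 4-fold and called 5 to 12 others. Every simulated gene had the same dispersion and no liver was outlying, so this does not give the detection rate in the real livers. Libraries of a genotype differed by at least 20.6 in chi-square per degree of freedom, so none was a copy. Alternatives were DESeq2 1.42.0, RLE and upper-quartile normalization, no filter, all 12 livers in 1 fit, the replicate number as a block, each liver left out, livers without Xist counts, Xist as a covariate, the summed Hspa1a and Hspa1b counts, the authors' FPKM for levels and a prior count of 0.5 for likeness. The Xist covariate was the presence of Xist counts, so against WT it marked only DKO replicate 4 or SKO replicate 3. Counts of list genes without DKO replicate 4 or SKO replicate 3 were added after seeing the data.

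The 10 genes, the lists of related genes and the cell markers were chosen with earlier results of these data known. The rule for named genes took all 10, of each list up to 4 genes past the threshold per comparison and, for each of the 10, the 3 genes nearest in profile, with Cirbp and Rbm3 and, as checks, Cpt2, Atf3, Xist and Y-linked genes. Hsp90ab1, Stip1, Chordc1 and further Cct genes are named outside this rule, and Ly6g, Mpo and Retnlg as markers at 0. RefSeq promoters (GRCm38.p6) were matched by symbol for 7 of 10 genes (not Hspa8, Hsp90aa1 and Hsf1), as 9 promoters. Transcript windows came from GENCODE M21.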

Additional observations from a re-analysis of the deposited data

Results flagged for a closer look

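A liver far from the other 3 of its genotype was found for 2 of the 33 sets of 4 livers checked, by Dixon's test at its 95% critical value, and 1.65 such sets would be expected by chance. Both concern Hspa1a, the member with the fewest counts. WT replicate 4 was at 1.22 CPM with 22 counts, where the other WT livers had 1 to 4 counts. SKO replicate 2 was at 1.92 CPM with 38 counts, where the other SKO livers had 11 to 16 counts. The same pair of livers had the highest level of Hspa1b in their genotypes, at 27.8 and 49.0 CPM.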

How the results depend on the processing

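The rises of Hspb1 and Hspa8 in SKO against WT livers passed the threshold in every alternative. The count of the 10 genes called in SKO against WT livers was 3, against 4 with no filter, where Bag3 also passed (edgeR, adjusted p = 0.0154), 2 with all 12 livers in 1 fit, and 2 to 5 when a liver was left out, with 5 without WT replicate 4 and 2 without SKO replicate 2, WT replicate 1 or WT replicate 2. In DKO against WT livers it was 2, against 1 with no filter, 1 with all 12 livers in 1 fit, 5 with Xist as a covariate and 0 to 5 when a liver was left out. The 5 was without DKO replicate 4, and each of the other 7 gave 0. The Xist covariate marked only DKO replicate 4 here, so it nearly equals leaving that liver out and is not a separate check. Over all genes, 1510 were called in DKO against WT livers, 2509 by DESeq2, 5168 with Xist as a covariate, and 244 to 5253 when a liver was left out (5253 without DKO replicate 4). In DKO against SKO livers 3 were called, 91 by DESeq2, 35 with no filter, 21 in only the livers without Xist counts, 9 with Xist as a covariate and 0 to 15 when a liver was left out (15 without DKO replicate 4). In SKO against WT livers 4576 were called, and 3617 to 4711 when a liver was left out. The cause of these moves was not tested.

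Directions changed only for values that did not pass the threshold. When a liver was left out, log2 fold changes ranged from -0.020 to 0.59 for Hsph1 in SKO against WT livers. With DKO against WT livers they ranged from -0.49 to 0.91 for Hspa1b, from -0.23 to 0.40 for Hsph1 and from -0.46 to 0.96 for the summed Hspa1a and Hspa1b. In DKO against SKO livers they ranged from -0.99 to 0.29 for Hspa1a, from -0.43 to 0.038 for Hsph1, from -0.32 to 0.47 for Hspb1, from -0.37 to 0.037 for Dnajb1, from -0.27 to 0.075 for Bag3 and from -0.087 to 0.12 for Hsf1. In only the livers without Xist counts, DKO against SKO values were 0.056 for Hspb1, 0.030 for Bag3 and -0.015 for Hsf1. Hsf1 was also at -0.015 by DESeq2, -0.0020 with RLE normalization and -0.023 with no filter.

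Samples with the same replicate number did not deviate together, with correlations of deviations from -0.43 to 0.16, so the numbers do not pair the livers. With the replicate number as a block, 691 genes were called in DKO against WT livers and 0 in DKO against SKO livers, and of the 10 genes 3 in SKO against WT livers and 0 in DKO against WT livers, where the block gave Hspb1 an adjusted p of 0.0741 and Hspb8 one of 0.0919 in edgeR.

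With 4 livers per genotype, the spread of Hspa1b, Hspa1a and Hsph1 left intervals wider than a 2-fold change, and fewer than 40 counts per liver limit Hspa1a.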
